A study of Drosophila melanogaster with 6 samples.

Results

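The glutathione S-transferase (GST) genes were followed in the adult midgut of Drosophila melanogaster, in wild type and in mutants lacking the tumor suppressor *Apc1*. GSTs couple the tripeptide glutathione to reactive, electrophilic compounds, and this makes plant toxins, insecticides and the aldehydes left by oxidized lipids easier to excrete. Insects carry expanded Delta and Epsilon classes, whose genes lie in clusters and have repeatedly been tied to insecticide resistance. The gut is one of the tissues in which flies detoxify what they eat, along with the fat body and the Malpighian tubules.

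A gene was counted as a GST when its symbol in the deposited table is Gst followed by a class letter (D, E, O, S, T or Z) and a number. This rule found 20 of the 12998 gene entries measured, each with 1 probe set carrying such a symbol. They are the 10 Delta genes *GstD1* to *GstD10*, 9 Epsilon genes (*GstE1* to *GstE7*, *GstE9* and *GstE10*) and the Sigma gene *GstS1*. No gene of the Omega, Theta or Zeta class carries a symbol of this form in the table, and these classes, found by their current names, are described separately. *GstE8* was matched to no entry and was not analysed here.

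RNA came from whole midguts of 7-day-old adult females held at 25 °C after eclosion, with the midguts of several animals pooled in each sample. There were 3 wild-type samples and 3 of *Apc1Q8*, an allele described as null and carried by the whole animal (*Apc1-/-*), each on 1 Affymetrix Drosophila Genome 2.0 array. *Apc1* restrains Wingless signaling, so the comparison asks how losing it alters gene expression in the gut. The wild-type strain is Canton S in the methods and w1118 in the text deposited with the data, and differences of genetic background and of *Apc1* cannot be told apart here. Nothing in the sources used here says that the 3 samples of a genotype came from separate cultures, so the p-values measure the spread between these samples, which may be technical. In pooled tissue, fewer cells of a type and less RNA per cell cannot be told apart either.

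Values are deposited log2 signals, in which a difference of 1 is a 2-fold change. Across all probe sets except controls, the array medians lay between 2.54 and 2.60. Over the same probe sets, arrays correlated at 0.983 to 0.992 within a genotype and at 0.954 to 0.964 between genotypes. The *Apc* probe set read 5.89, 6.63 and 6.41 in wild type and 6.13, 6.94 and 6.42 in the mutant, and the genotypes overlapped (limma, adjusted p = 0.781). Where this probe set lies relative to the lesion is not given in the sources used here, so it does not check the labels. All 8 midgut enterocyte markers had wild-type means of 8.16 or more, while 2 of the 5 progenitor markers were called higher in the mutant (*esg* by 1.10 and *Delta* by 0.68) and none lower, with *spdo* at a difference of -0.41 that did not pass (limma, adjusted p = 0.0705).

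GST expression was lower in *Apc1* mutant midguts for 6 of the 20 genes and higher for none at an adjusted p under 0.05, the threshold used for every call. The 6 were *GstD10*, *GstD5*, *GstD7*, *GstE3*, *GstE6* and *GstS1*, and each was more than 2-fold lower. Across all gene entries 5.39% were called lower and 8.89% higher, and 14.3% were called in either direction. The difference was below 0 for 16 of the 20 genes, against 48.5% of all entries. The median difference of the 20 was -0.68, and they ranged from -2.41 to 0.47, beside a median of 0.01 over all entries. In 11 genes all 3 mutant arrays lay below all 3 wild-type arrays, a separation seen in 14.2% of all entries, and in none did they all lie above, as they did in 21% of all entries. The other 9 overlapped. At an unadjusted p under 0.05 there were 11 genes lower and 0 higher, beside 11% and 17.6% of all entries.

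**Figure D1:**
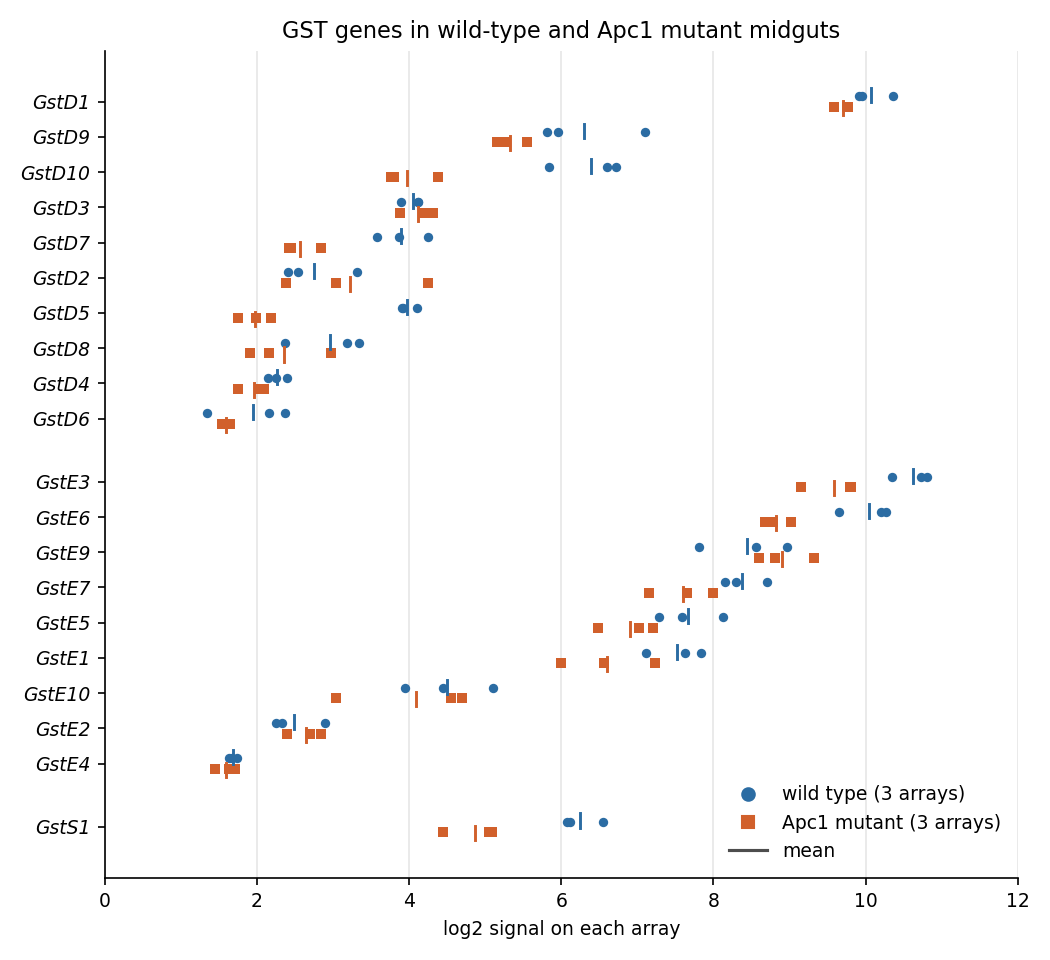
Log2 signal of the 20 GST genes (horizontal axis) on each of the 3 wild-type arrays (circles) and 3 Apc1 mutant arrays (squares), ordered within class by mean, with short bars for the group means. The 11 genes whose groups do not overlap all have the mutant arrays to the left, among them GstD10, GstD5, GstD7, GstE3, GstE6 and GstS1, while GstE9 and GstD2 have mutant means to the right of wild type within overlapping arrays.

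In the Delta class, 3 of 10 genes were called lower, and the median difference was -0.50. *GstD10* had the largest difference of all the GST genes. It read 6.71, 6.60 and 5.83 in wild type and 3.76, 3.80 and 4.38 in the mutant. The lowest wild-type array stood 1.46 above the highest mutant array, with wild-type replicate 3 and mutant replicate 3 the nearest to each other. The means were 6.38 ± 0.48 and 3.98 ± 0.35 (SD, n = 3 per genotype, as for all means below), a 5.30-fold decrease (log2 difference -2.41, SE 0.27, limma adjusted p = 0.00214). Among all entries on the arrays the gene went from percentile 77.8 in wild type to percentile 50.7 in the mutant.

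*GstD5* and *GstD7* are dim genes of the same cluster. *GstD5* read 4.10, 3.92 and 3.91 in wild type and 1.99, 1.75 and 2.18 in the mutant. Its arrays were tightly grouped within each genotype and far apart between them. The means of 3.97 ± 0.11 and 1.97 ± 0.22 differed by -2.0 (SE 0.14), a 4.0-fold decrease with the lowest adjusted p of the GST genes (limma, 0.000269). *GstD7* read 4.24, 3.57 and 3.86 against 2.44, 2.84 and 2.43. Here too no mutant array reached the lowest wild-type array. It fell from 3.89 ± 0.34 to 2.57 ± 0.23 (difference -1.32, SE 0.20, 2.50-fold, limma adjusted p = 0.00692). The mutant means of both genes are near or below the median signal of an array, so a further decrease could not have been followed far.

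*GstD1* is the brightest Delta gene, at percentile 97.8 of wild-type entries. Its enzyme can remove hydrogen chloride from DDT, and *GstD1* reporters are widely used to read oxidative stress signaling in the fly gut. It read 10.36, 9.96 and 9.92 in wild type and 9.75, 9.58 and 9.76 in the mutant. The mutant arrays all lay below the wild-type arrays, but the gap was 0.15. The difference of -0.38 (95% interval -0.73 to -0.02) did not pass the test (limma, adjusted p = 0.151). Its lower limit is a smaller decrease than that estimated for any of the 6 called genes. The interval still overlaps that of *GstE3* (-1.55 to -0.53), so a smaller decrease than that of *GstE3* was not shown.

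The remaining Delta genes did not pass the test. *GstD9* read 7.10, 5.96 and 5.81 in wild type and 5.27, 5.15 and 5.56 in the mutant, with wild-type replicate 1 well above the other wild-type arrays. The groups did not overlap, and the difference of -0.97 (SE 0.33) had an adjusted p of 0.107. Without wild-type replicate 1 it was -0.56. *GstD4* also separated, by 0.05, with a difference of -0.31. *GstD2*, *GstD3*, *GstD6* and *GstD8* overlapped, with differences of 0.47, 0.08, -0.35 and -0.61 and adjusted p from 0.296 to 0.778. *GstD2* was spread widely among mutants, at 3.04, 2.38 and 4.24, and its difference turned to -0.05 without mutant replicate 3. That of *GstD3* turned to -0.02 without mutant replicate 1 and to -0.05 after quantile normalization.

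The Epsilon class held most of the bright GST genes, and 2 of its 9 genes were called lower (median difference -0.75). *GstE3* was the brightest GST probe set. It read 10.81, 10.35 and 10.73 in wild type and 9.81, 9.16 and 9.79 in the mutant. No arrays overlapped, and replicate 2 was the lowest of each genotype. It fell from 10.63 ± 0.25 to 9.59 ± 0.37 (difference -1.04, SE 0.22, 2.06-fold, limma adjusted p = 0.0221). This call was lost on leaving out wild-type replicate 1 (adjusted p = 0.0673), wild-type replicate 3 (0.0666) or mutant replicate 3 (0.0526).

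*GstE6* read 10.27, 9.64 and 10.21 in wild type and 9.02, 8.78 and 8.68 in the mutant. The 3 mutant arrays lay within a narrow band below every wild-type array. Its means of 10.04 ± 0.34 and 8.83 ± 0.18 gave a 2.32-fold decrease (difference -1.21, SE 0.19, limma adjusted p = 0.00815), the largest of the Epsilon class. It moved from percentile 97.7 to percentile 94.6, and *GstE3* from 98.6 to 96.8, so both still ranked among the bright entries of the mutant arrays.

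*GstE7* was the gene nearest to the threshold from outside, as *GstE3* was from inside. It read 8.30, 8.15 and 8.70 in wild type and 7.65, 7.16 and 8.0 in the mutant. The groups did not overlap, with mutant replicate 2 again the lowest. The difference was -0.78 (SE 0.24, limma adjusted p = 0.0785). *GstE5* also separated, with means of 7.66 ± 0.43 and 6.91 ± 0.38 (difference -0.75, adjusted p = 0.113). *GstE1* read 7.62, 7.11 and 7.84 against 5.99, 6.56 and 7.23, so that mutant replicate 3 overlapped wild type (difference -0.93, adjusted p = 0.115). The dim genes *GstE2*, *GstE4* and *GstE10* overlapped, with differences of 0.15, -0.09 and -0.40. *GstE10* turned to 0.13 without mutant replicate 1.

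*GstE9* was the only bright GST gene with a higher mean in the mutant, and its probe sets disagreed. The probe set that carries its symbol read 8.96, 7.81 and 8.56 in wild type and 9.32, 8.60 and 8.80 in the mutant. These arrays overlapped, and the difference of 0.46 (95% interval -0.28 to 1.21) did not pass the test (limma, adjusted p = 0.387). Leaving out wild-type replicate 2 gave 0.15, and leaving out wild-type replicate 1 gave 0.72. A second probe set, without a symbol in the table, matched *GstE9* by its RefSeq accession and was dimmer. It read 4.71, 3.91 and 4.59 in wild type and 2.06, 1.70 and 1.89 in the mutant. No arrays overlapped there, and with every one of 18769 probe sets tested on its own the difference was -2.52 (SE 0.22, limma adjusted p = 0.000508). Averaging both probe sets gave a difference of -1.03 (adjusted p = 0.0464). Which transcript each probe set reads was not tested, so *GstE9* has no settled direction here.

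**Figure D2:**
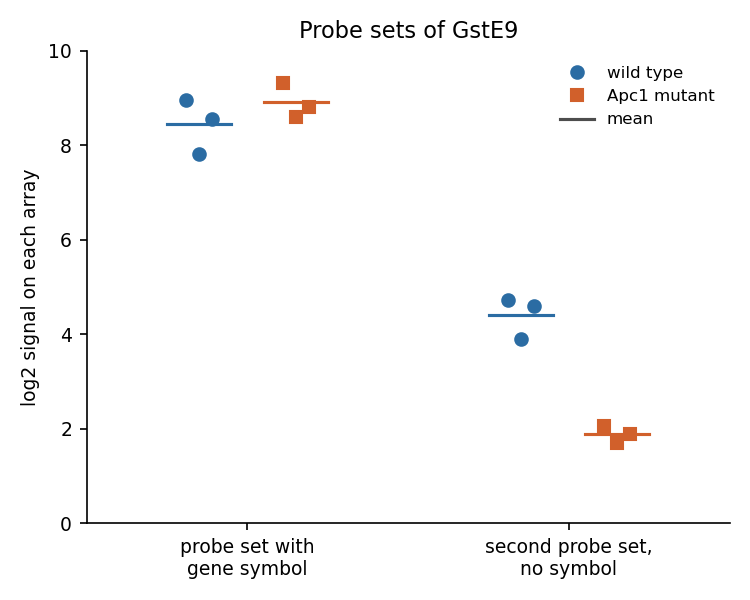
Log2 signal (vertical axis) of both GstE9 probe sets on each of the 3 wild-type arrays (circles) and 3 Apc1 mutant arrays (squares), with lines at the group means. The probe set with the gene symbol overlaps between genotypes at means of 8.44 and 8.91, while the second probe set goes from 4.40 in wild type to 1.89 in the mutant with no overlap.

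*GstS1*, the only Sigma gene of the fly, encodes an abundant protein of the flight muscle that conjugates the lipid peroxidation aldehyde hydroxynonenal. It read 6.55, 6.12 and 6.08 in wild type and 5.05, 5.09 and 4.44 in the mutant. The arrays of the genotypes did not overlap, and mutant replicate 3 was the lowest. It fell from 6.25 ± 0.26 to 4.86 ± 0.36 (difference -1.39, SE 0.22, 2.62-fold, limma adjusted p = 0.00751). Its probe set is the only one of the 20 whose identifier marks probes shared by several transcripts. Of the 8 muscle markers 1 was called lower (*Mlc2*, difference -0.96), and the list's median signal ranged from 8.98 to 9.35 on wild-type arrays and from 9.21 to 9.44 on mutant arrays. Their part in the *GstS1* value was not tested.

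By signal, the GST genes divided evenly at a mean of 5. Among the 10 with a mean of 5 or more, 4 were called lower, 8 separated and the median difference was -0.95. Of all entries this bright, 9.02% were called lower and 14.1% higher. Among the 10 dimmer genes 2 were called, both Delta genes, 3 separated and the median difference was -0.33, where 3.19% of all dim entries were called lower. The share of entries that separated was counted over all entries (14.2%) and not by brightness, so these counts have no matched background. For 5 of the dim genes both group means were under 3, close to or below the array medians, and values this low carry no order. The 5 brightest were *GstE3*, *GstD1*, *GstE6*, *GstE9* and *GstE7*. Signals of different probe sets are not amounts of RNA, so this order is one of probe brightness.

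**Figure D3:**
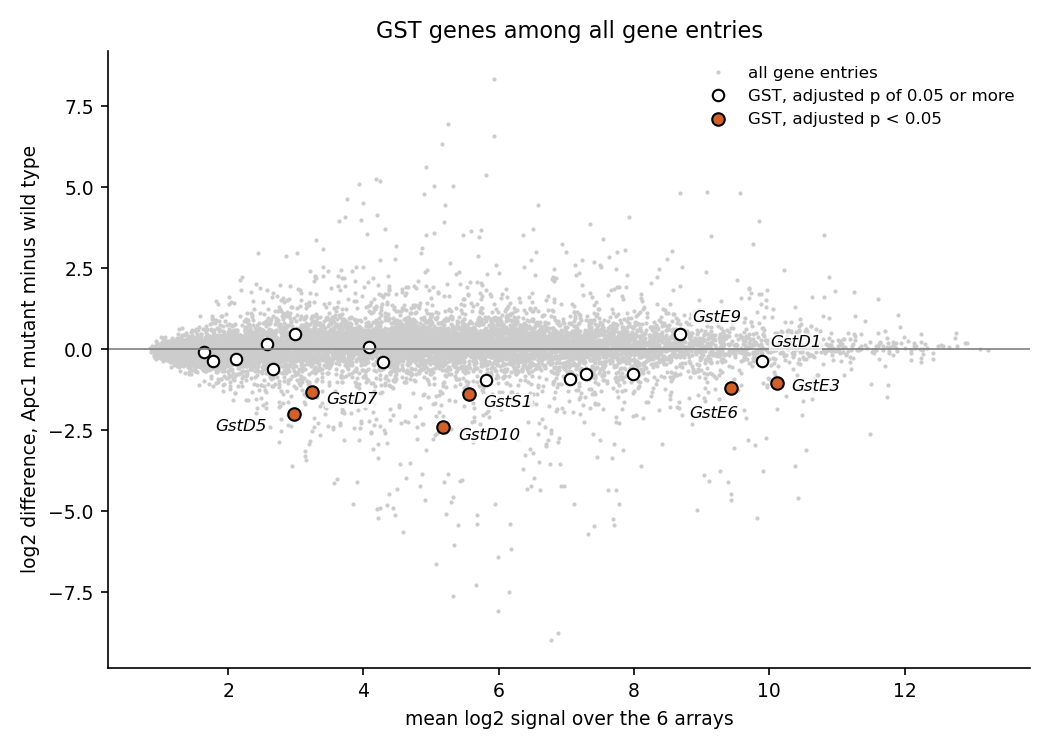
Log2 difference of mutant minus wild type (vertical axis) against the mean log2 signal over the 6 arrays (horizontal axis), for all 12998 gene entries (grey) and the 20 GST genes (outlined, filled where the adjusted p is under 0.05). The 6 filled points lie below 0, at both dim and bright signals, and many entries of other genes differ by more than GstD10, the lowest GST at -2.41.

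The GST genes varied more between arrays of one genotype than most entries did. Their median SD was 0.35 in wild type and 0.29 in the mutant, against 0.19 and 0.14 over all entries. Relative to its 6-array mean, the median GST gene stood at 0.52, 0.15 and 0.35 on the wild-type arrays and at -0.24, -0.48 and -0.19 on the mutant arrays. Every wild-type array was thus above every mutant array by this measure, while the median over all entries stayed within 0.025 of 0 on each array. In the Epsilon class alone the arrays overlapped, with wild-type replicate 2 at 0.05 and mutant replicate 3 at 0.07. Wild-type replicate 1 was the highest of its group for 13 genes, and mutant replicate 2 the lowest of its group for 12.

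The Delta genes form a cluster on chromosome arm 3R and the Epsilon genes another on arm 2R, and *GstS1* lies elsewhere on 2R. In the order of the RefSeq annotation, the Delta cluster runs *GstD10*, *GstD9*, *GstD1*, *GstD2*, *GstD3*, *GstD4*, *GstD5*, *GstD6*, *GstD7* and *GstD8*. The called genes were not side by side there. *GstD5* and *GstD7* flank *GstD6*, which overlapped between genotypes, and *GstD10* lies at the end of the cluster. In the Epsilon cluster *GstE3* is separated from *GstE6* by *GstE4* and *GstE5*, neither of which passed. The genes measured just outside the clusters and between members were not called lower. *GstD11* and *CG10035*, beyond *GstD8*, did not pass, and of the nearest neighbours of the Epsilon cluster only *BomS6*, an immune-induced peptide gene, was called, as higher (difference 2.11, limma adjusted p = 0.0181). On arm 3R as a whole 5.38% of entries were called lower and on 2R 5.51%, beside 5.65% on X, 5.13% on 2L and 5.33% on 3L. *Apc* itself lies on 3R, 1774 places from *GstD8* among 3069 measured genes of that arm.

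**Figure D4:**
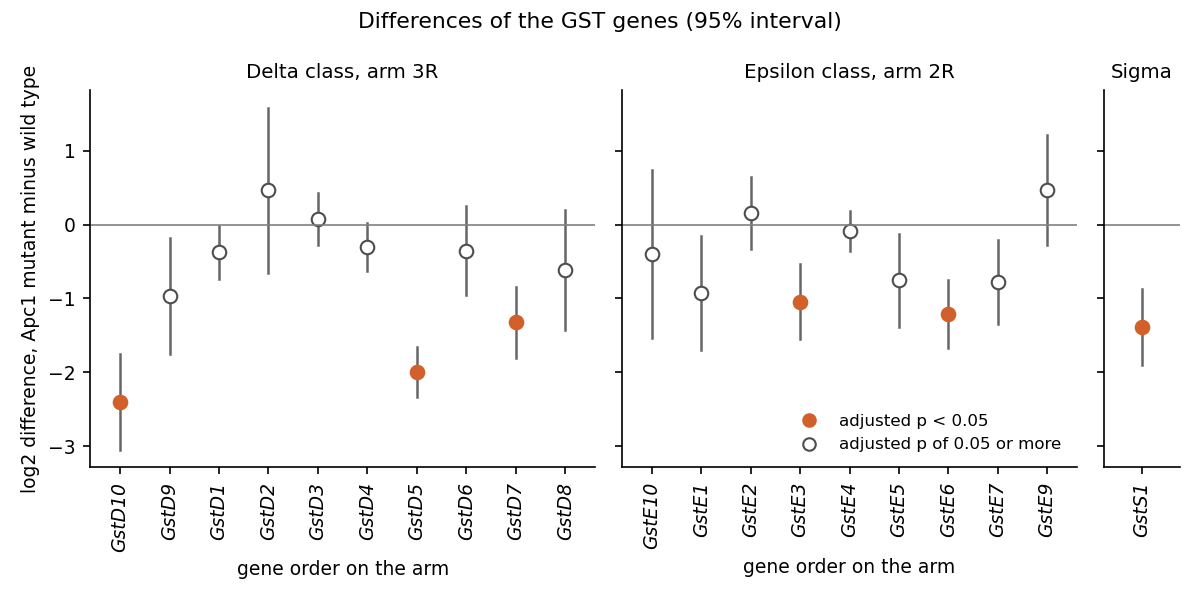
Log2 difference of mutant minus wild type (vertical axis) with its 95% interval for each GST gene, in gene order along the Delta cluster on arm 3R, the Epsilon cluster on arm 2R and for GstS1. Filled points have an adjusted p under 0.05, and most genes beside them also lie below 0 without passing, such as GstD9 at -0.97 beside GstD10 and GstE5 and GstE7 at -0.75 and -0.78 beside GstE6.

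A further 15 GST genes, known by other names in the deposited table, were found through current RefSeq symbols. They comprise 5 further Delta and Epsilon genes (*GstD11* and *GstE11* to *GstE14*), the Theta and Zeta genes, and the Omega genes including *se*, an enzyme of red eye pigment synthesis. None of the 15 was called lower, and their median difference was 0.02 (range -0.58 to 0.57). At an unadjusted p under 0.05, 1 was lower and 2 were higher. The lower one, *GstT3*, read 7.13 ± 0.33 and 6.55 ± 0.10 without overlap (limma, adjusted p = 0.079). It passed in 2 of 12 alternative fits. Of the 15 genes 9 had a mean of 5 or more. Only *GstT1* was called, as higher, from 7.29 ± 0.19 to 7.85 ± 0.09 (difference 0.57, SE 0.13, limma adjusted p = 0.0339), and it passed in 5 of 12 alternative fits. *se* read 3.12 ± 0.44 and 3.02 ± 0.03. The difference between these 15 genes and the 20 was not tested.

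The wider pathway was counted over 51 genes, those 15 included, of which 11 were called lower and 6 higher (5.39% and 8.89% of all entries, the shares beside which the counts of each list below stand). Besides the GSTs, *Mgstl*, a membrane-bound GST, stayed at 7.47 ± 0.18 and 7.45 ± 0.19, and *gfzf*, a zinc finger protein with a GST domain, read 4.77 ± 0.17 and 5.04 ± 0.18 (adjusted p = 0.947 and 0.27).

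Of 5 genes of glutathione synthesis and turnover 1 was called lower and 2 higher. *Gclc*, the catalytic subunit of glutamate-cysteine ligase, the rate-limiting enzyme, read 9.29 ± 0.38 and 9.74 ± 0.09 and did not pass (limma, adjusted p = 0.186). *Gclm*, its modifier subunit, fell from 6.64 ± 0.33 to 5.87 ± 0.25 (difference -0.77, adjusted p = 0.0492). *Ggt-1*, a gamma-glutamyl transpeptidase, which starts glutathione breakdown outside the cell, rose from 6.23 ± 0.80 to 8.22 ± 0.17, or 3.97-fold (adjusted p = 0.0146), and *CG4829*, listed with it, rose from 7.03 ± 0.16 to 7.70 ± 0.07 (adjusted p = 0.0146).

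Among 10 thioredoxin, glutaredoxin and peroxidase genes 4 were called lower and 1 higher. *Trx2*, a thioredoxin, fell from 9.28 ± 0.09 to 8.61 ± 0.18 (limma, adjusted p = 0.0167), and *Gtpx*, a glutathione peroxidase homolog, from 9.27 ± 0.01 to 8.83 ± 0.04 (0.0282). The peroxiredoxin *Prx2* fell from 8.82 ± 0.19 to 7.86 ± 0.28 (0.0136) and *Prx4* from 6.94 ± 0.17 to 6.31 ± 0.14 (0.0234). None of these reached 2-fold. *Prx6c* rose from 1.32 ± 0.69, well below the array medians, to 2.70 ± 0.29, close to them (adjusted p = 0.0384). A brighter probe set shared by *CG12896*, *Prx6b* and *Prx6c* overlapped between genotypes, at 6.44 ± 0.38 and 6.23 ± 0.23 (difference -0.21, limma adjusted p = 0.583). The direction of *Prx6c* is therefore not settled. *Trxr1*, the reductase that in flies also keeps glutathione reduced, read 9.30 ± 0.17 and 9.12 ± 0.04 (adjusted p = 0.381).

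The transcription factor CncC, made from *cnc*, switches on GST genes when its inhibitor Keap1 releases it. Both genes were called lower among the 4 regulators measured, with 1 higher. *cnc* read 8.83, 9.06 and 8.93 in wild type and 8.43, 8.43 and 8.41 in the mutant (difference -0.52, SE 0.11, limma adjusted p = 0.0234). A dimmer probe set matched to *cnc* went the other way, from 3.07 ± 0.35 to 4.60 ± 0.21 (difference 1.53, adjusted p = 0.00309 over all probe sets), and the mean of both rose by 0.51, so *cnc* has no settled direction either. *Keap1* fell from 6.37 ± 0.41 to 5.33 ± 0.16 (difference -1.03, SE 0.21, 2.05-fold, adjusted p = 0.0216). *maf-S*, the DNA-binding partner of CncC, rose from 8.59 ± 0.13 to 9.04 ± 0.04 (adjusted p = 0.0422), and *ref(2)P* overlapped between genotypes.

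Cytochrome P450s, glycosyltransferases and ABC transporters also act in detoxification. Of 13 such genes 4 were called lower and 1 higher, and the decreases were larger than those of the GST genes in 3 of them. *Mdr50*, an ABC transporter, fell from 8.78 ± 0.26 to 4.44 ± 1.16 (20.3-fold, limma adjusted p = 0.00271). *Ugt35B1*, a UDP-glycosyltransferase, fell from 5.61 ± 0.62 to 1.60 ± 0.24 (16.2-fold, adjusted p = 0.000336). *Cyp6a2*, a P450 linked to insecticide resistance, fell from 8.16 ± 0.39 to 5.24 ± 0.13 (7.54-fold, adjusted p = 0.000242), and *Cyp6g1*, linked to DDT resistance, fell from 8.67 ± 0.54 to 7.30 ± 0.16 (adjusted p = 0.0165). A probe set shared by *Cyp12d1-d* and *Cyp12d1-p* rose from 5.90 ± 0.53 to 7.55 ± 0.23 (3.14-fold, adjusted p = 0.00906). In each of the 6 fits that left out 1 array, the calls of *Mdr50*, *Ugt35B1*, *Cyp6a2* and the *Cyp12d1* probe set held, while *Gclm*, *cnc*, *maf-S*, *Gtpx*, *Prx6c*, *Prx4* and *Keap1* held in at most 2 of the 6.

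**Figure D5:**
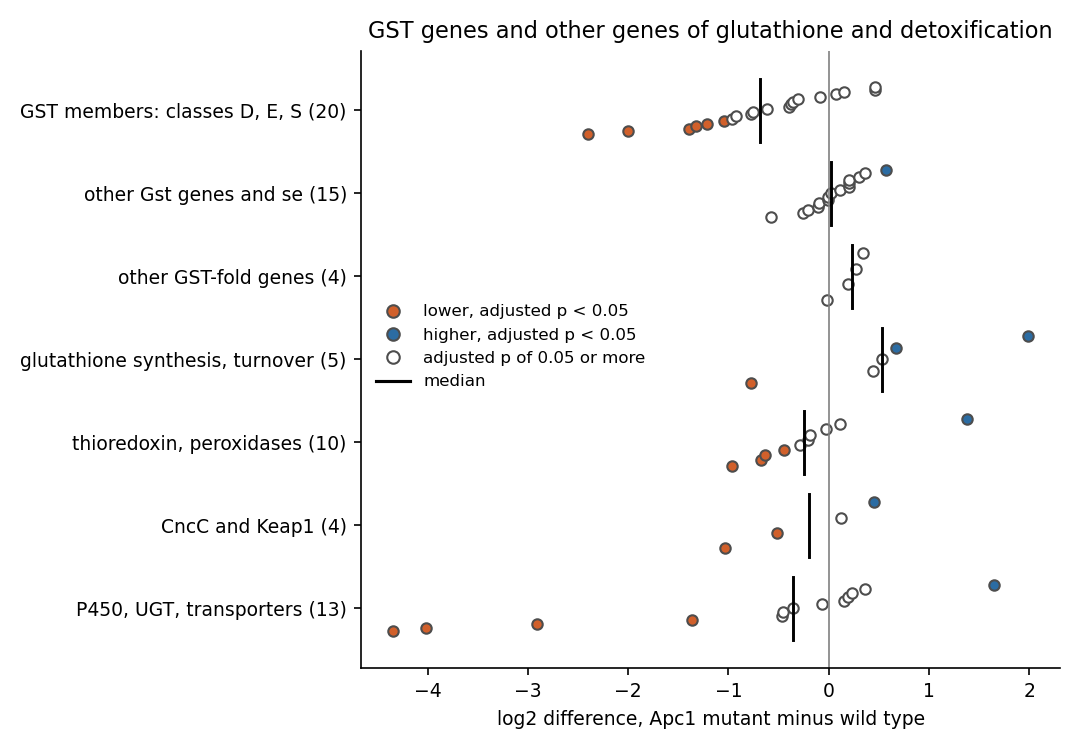
Log2 difference of mutant minus wild type (horizontal axis) for each gene of the GST list and of 6 related lists, with the number of genes in brackets and a bar at each list's median. The GST list has its median at -0.68 and the other Gst genes at 0.02, and the largest decreases are those of the transporter Mdr50 and the glycosyltransferase Ugt35B1 in the bottom list.

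Markers of other tissues and cells differed between the genotypes in both directions. All 7 fat body markers measured had differences below 0 (median -0.92) though none was called, and the list's median signal ranged from 5.11 to 7.24 on wild-type arrays and from 2.24 to 4.54 on mutant arrays. The fat body storage protein gene *Lsp2* read 1.13 ± 0.18 and 1.02 ± 0.10, below the array medians, where *Fbp1* and *Lsp1beta* also lay. *Yp1* read 10.15 ± 0.79 and 8.12 ± 1.74, *Yp2* 8.01 ± 1.26 and 4.93 ± 1.72, and *Yp3* 6.02 ± 1.10 and 3.71 ± 1.28. In these Yp genes no arrays overlapped between genotypes (limma, adjusted p = 0.163, 0.0725 and 0.0855). *apolpp* overlapped, at 7.80 ± 1.41 and 6.88 ± 1.10. All 5 Malpighian tubule markers also had differences below 0, with 1 called (*Oatp58Dc*, difference -1.35), and the list's median signal lay at 5.63 to 6.48 on wild-type arrays and at 4.28 to 5.72 on mutant arrays. *Uro*, the tubule's urate oxidase, was at 6.61 ± 1.02 and 6.17 ± 0.66. Of the 8 enterocyte markers 3 were called lower, *alphaTry* (-0.53), *betaTry* (-2.04) and *Vha100-4*, a proton pump subunit (-6.63). Another 3, *Myo31DF*, *nub* and the *Amy-d*/*Amy-p* probe set, had every mutant array above wild type (0.47, 0.53 and 0.55) without passing. Of the 8 enteroendocrine markers 5 were called higher (*pros*, *Tk*, *AstA*, *AstC* and *Dh31*, by 0.99 to 1.76) and 1 lower (*NPF*, -1.78), and of the 4 hemocyte markers only *Hml* was called, higher by 2.46. No hindgut or ovary marker was called. Of the 5 ovary and eggshell markers 4 had differences below 0 and 1 above (median -1.30). In 3 of them every mutant array lay below wild type, and in 1 every mutant array lay above. The list's median signal ranged from 1.69 to 5.08 on wild-type arrays and from 1.72 to 2.07 on mutant arrays. The part of these tissues and cells in the GST values was not tested. Wild-type replicate 2 had the highest fat body, tubule and ovary marker levels of the 6 arrays. Without it 6 GST genes were called lower and the median difference was -0.90. That array was also the lowest of its group for 9 GST genes. *Yp1* stayed higher on the other wild-type arrays (9.47 and 9.97) than on the mutant arrays (9.06, 6.11 and 9.18). This fit therefore cannot show the part of these tissues.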

How the data were processed

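The authors hybridized the 6 samples to Affymetrix Drosophila Genome 2.0 arrays and deposited log2 values after RMA, 1 per probe set and array. Software and background correction are not given in the sources used here. Their own comparison columns (ratios, fold changes and p-values) were not used. Of 18952 probe sets, 183 controls were dropped and 3977 had no gene name. The others were named by RefSeq accession (13693), by symbol or synonym (311) or from the table alone (119), or matched several genes (669). They made 12998 gene entries, each represented by its probe set with the highest mean. Genotypes were compared with limma 3.58.1 in R 4.3.3 (lmFit, eBayes, two-sided) with Benjamini-Hochberg adjustment over all entries, and the procedure was tested on simulated data. Tables were made with Python 3.11.15, pandas 2.3.3 and numpy 2.4.6, and plots with matplotlib 3.10.9. Full values were given for members called, the 5 brightest and the largest difference per class, and of the pathway lists group means for every called gene and *cnc*, *Keap1*, *Gclc*, *Gclm*, *Trxr1*, *Mgstl*, *se* and *gfzf*. The members and lists were chosen with earlier results of these data known. The number of arrays limits the precision.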

Additional observations from a re-analysis of the deposited data

How the results depend on the processing

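The count of GST genes called lower was 6 with each array centred on its median, with quantile normalization, and with trend and robust variance estimation. Requiring a change of more than 2-fold could not alter it, since each of the 6 exceeded that. Leaving out shared probe sets could not either, since no GST gene's probe set matched several genes. The count was also 6 with every probe set tested on its own, an alternative chosen after seeing the data. It was 7 with the mean of all probe sets, 5 at an adjusted p under 0.01, 4 among the 10 genes with a mean of 5 or more, and 5 to 6 with 1 array left out. The median difference of all the GST genes was between -0.77 and -0.67 in the fits that kept all arrays. It was between -0.90 and -0.55 with 1 array left out. Among only the 10 genes with a mean of 5 or more the median was -0.95. *GstD10*, *GstD5*, *GstD7*, *GstE6* and *GstS1* were called in every alternative fit that included them, and *GstD6* was called without wild-type replicate 1 (adjusted p = 0.0292).

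Over all entries 1856 genes were called, 814 with a change of more than 2-fold and 716 at an adjusted p under 0.01, and between 921 and 1533 with 1 array left out. The 17 calls among pathway genes became 8, 4 and between 4 and 13 in the same settings, and the lowest counts were without mutant replicate 3. Signs turned for *GstE9* (-1.03) and *cnc* (0.51) with the mean of probe sets and for *GstD3* with quantile normalization (-0.048). With 1 array left out, differences on both sides of 0 came, among the genes named with values, for *GstD2* (-0.045 to 0.89), *GstD3* (-0.017 to 0.20), *GstE10* (-0.69 to 0.13), *Mgstl* (-0.11 to 0.082) and *se* (-0.24 to 0.16). The cause was not tested.

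Same-numbered arrays deviated from their group means with correlations of 0.148, 0.201 and 0.0108, and differently numbered arrays with correlations of -0.228 to 0.116. Each wild-type array correlated most with the mutant array of its own number, weakly for replicate 3. Whether the numbers mark pairs is not given in the sources used here. With replicate number as a block, 8 GST genes were called lower, *GstE7* (adjusted p = 0.0216) and *GstE5* (0.0233) being added, 1593 genes in all and 12 of the pathway. Protein and promoter comparisons within the family were not run.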
